A study of Mus musculus with 2 samples.

Results

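IAPLTR1 and IAPLTR1a are the long terminal repeats (LTRs) of a young branch of intracisternal A particles (IAPs), the mouse endogenous retroviruses that still transpose. The LTRs described here are the rows annotated IAPLTR1_Mm or IAPLTR1a_Mm in the part of the study's list of IAP copies used here, which held 1042 LTR rows on chromosome 1 and the start of chromosome 10. Of these rows 302 were members, 262 on chromosome 1 and 40 on chromosome 10 (mm10), and 300 of the 302 reached the minimum of 20 methylation calls in sperm and in tail. These 300 are 131 of 132 IAPLTR1 and 169 of 170 IAPLTR1a rows. By position they are 139 5′ LTRs, 139 3′ LTRs and 22 solo LTRs. The 2 rows left out are short fragments. Across all LTR rows, 765 of 1042 were measured in both libraries.

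The study compared sperm and tail DNA of 1 adult male C57BL/6J mouse, with 1 library for each tissue. Tail is a mixture of somatic cell types, and sperm is the mature male germ cell. DNA was treated with bisulfite, which turns unmethylated cytosine into uracil, and was then copied from tagged random primers. IAP ends were amplified with either of the primers IAP-BS1 and IAP-BS2, a method the study calls TEPBAT. With 1 library per tissue and 1 animal, every test below compares 2 libraries and not 2 tissues, and the LTR copies are not replicates of a tissue. The methylation level of an LTR is the mean, over its covered CpG positions, of methylated calls divided by all calls, from 0 to 1. The summed level is all methylated calls divided by all calls.

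An IAP carries the same LTR at both ends. The 5′ LTR holds the promoter, the 3′ LTR holds the signal that ends the transcript, and a solo LTR is what recombination between the LTRs leaves behind. Each LTR is made of U3 (promoter and enhancer), R and U5. In mammals CpG methylation keeps these promoters silent, and IAPs are known for holding much of their methylation through the erasure that other sequences undergo in primordial germ cells and early embryos.

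The primers and the LTR stretches they read are printed because they decide which CpGs have data. IAP-BS1 lies in U3 and reads towards the 5′ end of the LTR, and IAP-BS2 covers the polyadenylation signal and reads towards the 3′ end. The site of IAP-BS1 is the last 19 bases of the upstream stretches printed below. IAP-BS2 is written for bisulfite-converted DNA.
IAP-BS2: ggtttttgaagatgtaagtaataaagtttt

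The commonest IAPLTR1a sequence was found in 3 copies of 2 elements. It is shown from 1 copy, a 5′ LTR on the minus strand, with every CpG in capitals. Its upstream stretch with the IAP-BS1 site, chr1:148463787-148463910, is followed by the stretch between the primer sites, chr1:148463666-148463786, and the downstream stretch with the IAP-BS2 site, chr1:148463573-148463665.
IAPLTR1a upstream: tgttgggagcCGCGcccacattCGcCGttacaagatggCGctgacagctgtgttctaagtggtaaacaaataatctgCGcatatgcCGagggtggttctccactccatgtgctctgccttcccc
IAPLTR1a between: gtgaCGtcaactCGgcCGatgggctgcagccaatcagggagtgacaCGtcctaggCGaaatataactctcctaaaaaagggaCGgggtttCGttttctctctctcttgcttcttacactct
IAPLTR1a downstream: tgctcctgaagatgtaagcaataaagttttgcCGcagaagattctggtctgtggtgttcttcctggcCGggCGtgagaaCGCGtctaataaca

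The commonest IAPLTR1 sequence, also in 3 copies of 2 elements, is shown from a 3′ LTR on the minus strand to compare the same stretches. They lie at chr1:26349397-26349521 (upstream) and chr1:26349185-26349276 (downstream).
IAPLTR1 upstream: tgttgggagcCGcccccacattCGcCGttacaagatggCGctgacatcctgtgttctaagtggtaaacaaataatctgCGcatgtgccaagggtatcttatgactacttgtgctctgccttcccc
IAPLTR1 downstream: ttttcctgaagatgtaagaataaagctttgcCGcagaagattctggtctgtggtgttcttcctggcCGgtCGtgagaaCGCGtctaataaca

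The annotation was checked on the sequences. Of the 302 rows, 253 begin with TG and end with CA, the usual ends of a retroviral LTR. The motif TGACGTCA, the full cyclic AMP response element, was found in 78.1% of member rows. Of all 1042 LTR rows, members included, 248 (23.8%) hold it, and 236 of these 248 are member rows. The motif was within or between the primer sites in all 236 member rows that hold it. CCAAT was found in 98% of member rows and 75.2% of all LTR rows, and AATAAA, the polyadenylation signal, in 98.7% and 90% (both strands searched; none of the 3 motifs contains another). The measured IAPLTR1a LTRs had a median length of 338 bp and the IAPLTR1 LTRs of 367 bp, each with a median of 20 CpGs.

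Copies are very alike. The 302 rows hold 216 different sequences, and in 80 of 137 elements (58.4%) the 5′ and 3′ LTR are identical, so a read pair could be placed on 1 of them only through the sequence next to it. Read pairs with several hits had been discarded by the study. Between the primer sites there were almost no calls: in sperm 78 on the LTR strand and 35 on the other, and in tail 94 and 82, among 2925165 sperm and 1766789 tail calls in member LTRs. The CpG in the cyclic AMP response element, the CCAAT region and the R region were therefore hardly measured. Summed levels below are almost wholly those of the upstream and downstream stretches. The level of an LTR, however, counts each covered position alike, also those between the primer sites. In sperm 58 such positions were covered on the LTR strand and 19 on the other, and in tail 76 and 38.

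In each stretch nearly all calls came from 1 strand. Upstream, 755964 sperm calls and 701169 tail calls were read from the strand opposite to the LTR. Downstream, 2164349 sperm calls and 1059600 tail calls were read from the LTR strand. The mix of stretches changed with the type of LTR. Upstream calls were 71.7% of the sperm calls and 83.6% of the tail calls in 5′ LTRs, and 10.1% and 20.8% in 3′ LTRs. In solo LTRs they were 20.8% and 32%.

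The match to the primers differed between the subfamilies. IAP-BS1 matched without a difference in 121 of 169 IAPLTR1a LTRs and 98 of 131 IAPLTR1 LTRs. IAP-BS2 did so in 66 IAPLTR1a and 17 IAPLTR1 LTRs, and the IAPLTR1 copy printed above has an IAP-BS2 site of 29 bases where the IAPLTR1a copy has 30. Among 5′ LTRs the median number of upstream calls was 1278 in sperm and 959 in tail for the 104 with an exact IAP-BS1 site. It was 3900 and 4824 for the 20 with 1 difference, 2 and 8 for the 3 with 2, and 0 and 7 for the 11 with 3 or more. Per LTR, member calls ran from 36 to 119282 in sperm (median 4200) and from 32 to 51720 in tail (median 2767).

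Nearly every IAPLTR1 and IAPLTR1a LTR was highly methylated in both libraries. The median level was 0.893 in sperm (quartiles 0.859 and 0.924) and 0.918 in tail (0.881 and 0.940). A level above 0.8 was found in 282 of 300 LTRs in sperm (94%) and 287 in tail (95.7%). No member was at or under 0.2 in either library. The exact 95% binomial intervals given below for summed levels cover counting error of calls only, since the reads carry no molecular identifiers.

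The other IAP LTRs of the list were less uniform. Of the 465, 309 were above 0.8 in sperm (66.5%) and 369 in tail (79.4%), and 7 were at or under 0.2 in sperm. The share above 0.8 in sperm was 72.1% in IAPLTR2, IAPLTR2a and IAPLTR2b (n = 269), 54.1% in IAPLTR2a2 (n = 133) and 65.5% in the IAPEY family (n = 58). These shares describe copies of 1 library and were not tested.

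Within the members the sperm level depended on the subfamily and the type of LTR more than the tail level did. IAPLTR1a 5′ LTRs had the lowest sperm median, 0.871, against 0.921 in tail (n = 76), and 65 of the 76 were lower in sperm. IAPLTR1a 3′ LTRs had 0.894 in sperm and 0.915 in tail (n = 77, 50 lower in sperm). IAPLTR1a solo LTRs went the other way, with 0.927 in sperm and 0.908 in tail (n = 16, 6 lower in sperm). IAPLTR1 differed less, with medians for 5′ LTRs of 0.899 in sperm and 0.917 in tail (n = 63, 35 lower in sperm) and for 3′ LTRs of 0.906 and 0.916 (n = 62, 33 lower in sperm). The 6 IAPLTR1 solo LTRs had 0.917 in sperm and 0.927 in tail. Tail medians of the 6 groups thus lay between 0.908 and 0.927, and sperm medians between 0.871 and 0.927.

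**Figure D1:**
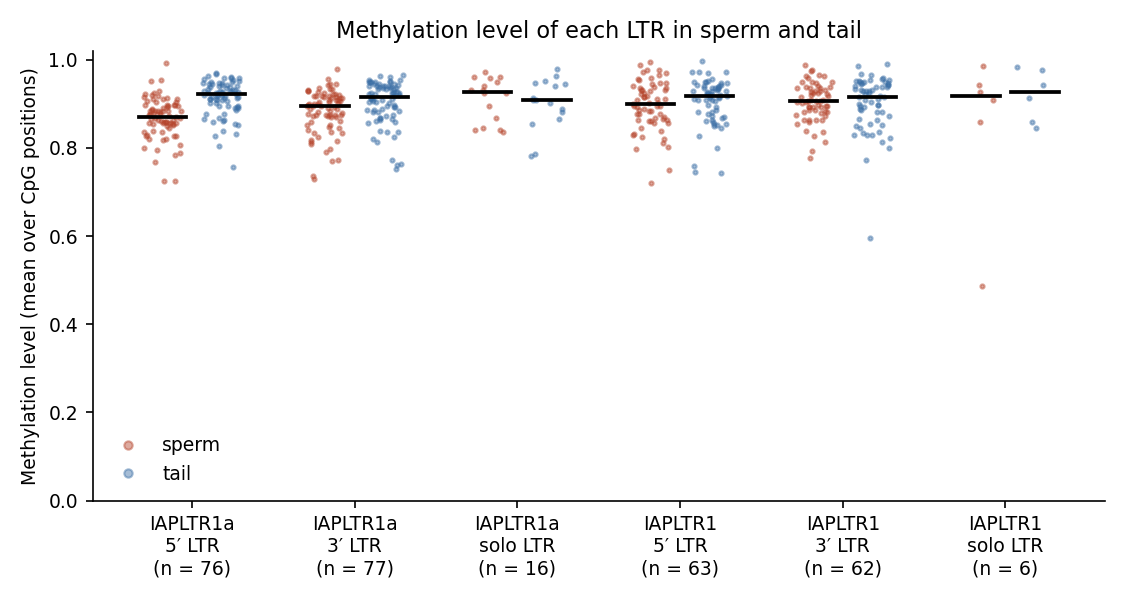
Methylation level (vertical axis, 0 to 1) of each of the 300 LTRs by subfamily and type, sperm left of tail in each pair; black bars are medians. IAPLTR1a 5′ LTRs have medians of 0.871 in sperm and 0.921 in tail, IAPLTR1a solo LTRs 0.927 and 0.908, and only 1 point in each library lies below 0.7.

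Copies had no common order of levels in the libraries. Across the 300 LTRs Spearman's rho between sperm and tail was -0.01 for levels and 0.18 for summed levels. These are descriptions over copies that share a library and differ in depth. Of the 300, 272 were above 0.8 in both libraries, 10 in sperm only, 15 in tail only and 3 in neither. Between the number of CpGs in an LTR and its level, rho was -0.01 in sperm and -0.04 in tail. Intergenic LTRs had medians of 0.892 in sperm and 0.914 in tail (n = 234), and LTRs in introns of protein-coding genes 0.897 and 0.927 (n = 59; GENCODE M21).

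**Figure D2:**
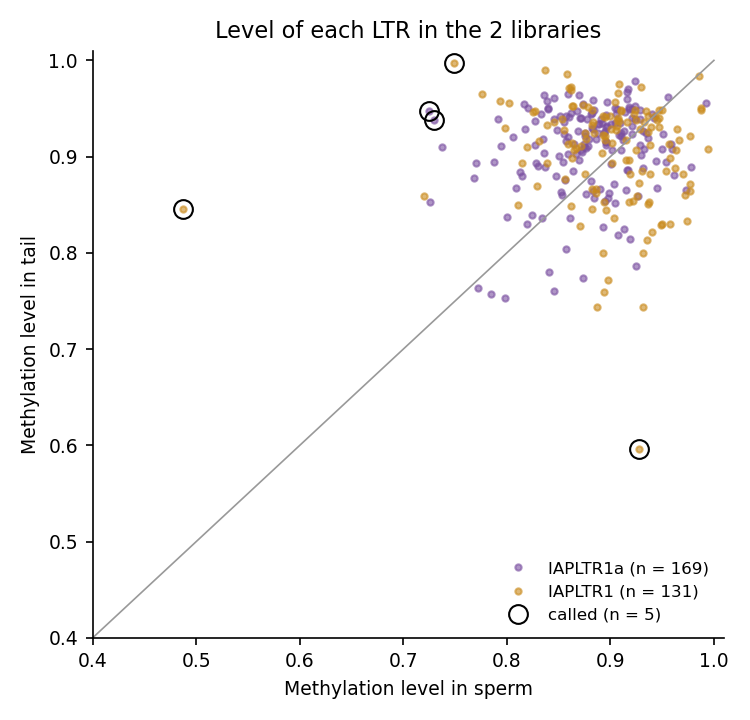
Level of each LTR in sperm (horizontal) against tail (vertical), coloured by subfamily; the line marks equal levels and the ringed points are the 5 LTRs called different between the libraries. Most points crowd above 0.8 on both axes and show no diagonal trend.

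For each LTR the summed calls of the 2 libraries were set against each other in a two-sided Fisher's exact test, with Benjamini-Hochberg adjustment over all 765 LTRs. An LTR was called different at an adjusted p under 0.05 and a difference in level of at least 0.2. Few members were called. Lower in sperm were 4 of 300 (1.33%), against 5.62% of all LTRs, and lower in tail was 1 of 300 (0.333%), against 1.31% of all LTRs. The median difference of the members, sperm minus tail, was -0.027, the same as over the 465 other LTRs, and 192 of the 300 were lower in sperm. The members thus had the same median difference as the rest but a narrower spread, with quartiles of -0.059 and 0.027 against -0.107 and 0.041.

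The single LTR called lower in tail is a 3′ IAPLTR1 LTR at chr1:87466911-87467259, in intergenic sequence 3012 bp from Snorc, which encodes a membrane proteoglycan of cartilage. Its level was 0.927 in sperm over 5 positions and 0.596 in tail over 6 positions. Summed, the level was 0.928 in sperm (2050 calls, exact 95% interval 0.916 to 0.939) and 0.520 in tail (2735 calls, 0.501 to 0.539; adjusted p by Fisher's exact test 5.2e-226). Intermediate levels ran across all 5 downstream CpGs of this LTR. Sites are numbered in bp from the 5′ end of the commonest bases of IAPLTR1a. At site 277 the level was 0.976 in sperm and 0.576 in tail, at site 312 0.709 and 0.477, at site 316 1.0 and 0.538, at site 324 0.951 and 0.445, and at site 326 1.0 and 0.541. Every site had 388 or more calls in sperm and 509 or more in tail.

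The 5′ LTR of the same element, at chr1:87460131-87460479, was not called, with 0.894 in sperm and 0.760 in tail, and summed levels of 0.871 (372 calls) and 0.860 (314 calls). Sites 124, 129 and 137, between the primer sites, lower its tail level, with 0.000 from 1 call each. Its first 5 downstream CpGs had tail levels of 0.895 to 0.957 from 44 to 57 calls each. Its last CpG, site 329, had 0.717 in sperm and 0.50 in tail (46 and 48 calls). A 3′ IAPLTR1 LTR at chr1:19629201-19629572 was matched to a bisulfite PCR locus of the study only by the leading digits of its start and by its type. It had 0.895 in sperm (1668 calls) and 0.922 in tail (618 calls), while its summed levels were 0.988 and 0.890, so that the sign of the difference rests on how positions are weighted.

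Of the LTRs called lower in sperm, 1 kept its call under all alternatives except a minimum difference of 0.3. It is a 5′ IAPLTR1a LTR at chr1:117708662-117709013, in an intron of the predicted gene Gm28363. It had 0.725 in sperm over 12 positions and 0.947 in tail over 12 positions (1120 and 499 calls, adjusted p by Fisher's exact test 3.1e-28). The difference was not even along the LTR. Sites 39, 78 and 87 had 0.338, 0.273 and 0.325 in sperm, from 77 calls each, against 0.960, 1.0 and 0.986 in tail, from 25, 27 and 74 calls. The neighbouring site 26 had 0.963 in sperm and 1.0 in tail. Downstream, the 5 sites had 0.783 to 0.946 in sperm and 0.908 to 0.984 in tail. The 3′ LTR of this element, at chr1:117701937-117702288, had a level of 0.872 in sperm and 0.940 in tail, with summed levels of 0.749 (13260 calls) and 0.935 (6435 calls).

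A 5′ IAPLTR1 LTR at chr1:38704800-38705206, 39845 bp from Aff3, a gene for a nuclear protein of the AF4/FMR2 family, had 0.749 in sperm and 0.998 in tail (265 and 528 calls, adjusted p by Fisher's exact test 1.4e-19). Among its sites with 10 or more calls, the difference was at 1 CpG: site 78 had 0.50 in sperm (88 calls) and 0.994 in tail (180 calls), whereas sites 26 and 39 had 1.0 and 0.989 in sperm and 0.993 and 0.988 in tail. Its other low sperm values, at sites 11 and 23, came from 2 calls and 1 call. With summed calls the difference was -0.174, under the minimum for a call.

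The other calls depend on thinly covered positions. A solo IAPLTR1 LTR at chr1:46180882-46181236, in an intron of Dnah7b, a gene for a heavy chain of axonemal dynein, had 0.487 in sperm and 0.846 in tail, the lowest sperm level of all members. Its summed levels were 0.890 (47808 calls) and 0.904 (14742 calls). Of its 22 positions in sperm, 10 had 1 or 2 calls and a level of 0. Over positions with at least 5 calls the difference was 0.073, higher in sperm. The 3′ IAPLTR1a LTR at chr1:149588318-149588656, 240962 bp from Pla2g4a, the gene of a cytosolic phospholipase A2, had 0.730 in sperm and 0.938 in tail, but 0.869 and 0.908 summed (15818 and 19339 calls). Positions under 5 calls were 14.9% of the covered member positions in sperm and 15.4% in tail.

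**Figure D3:**
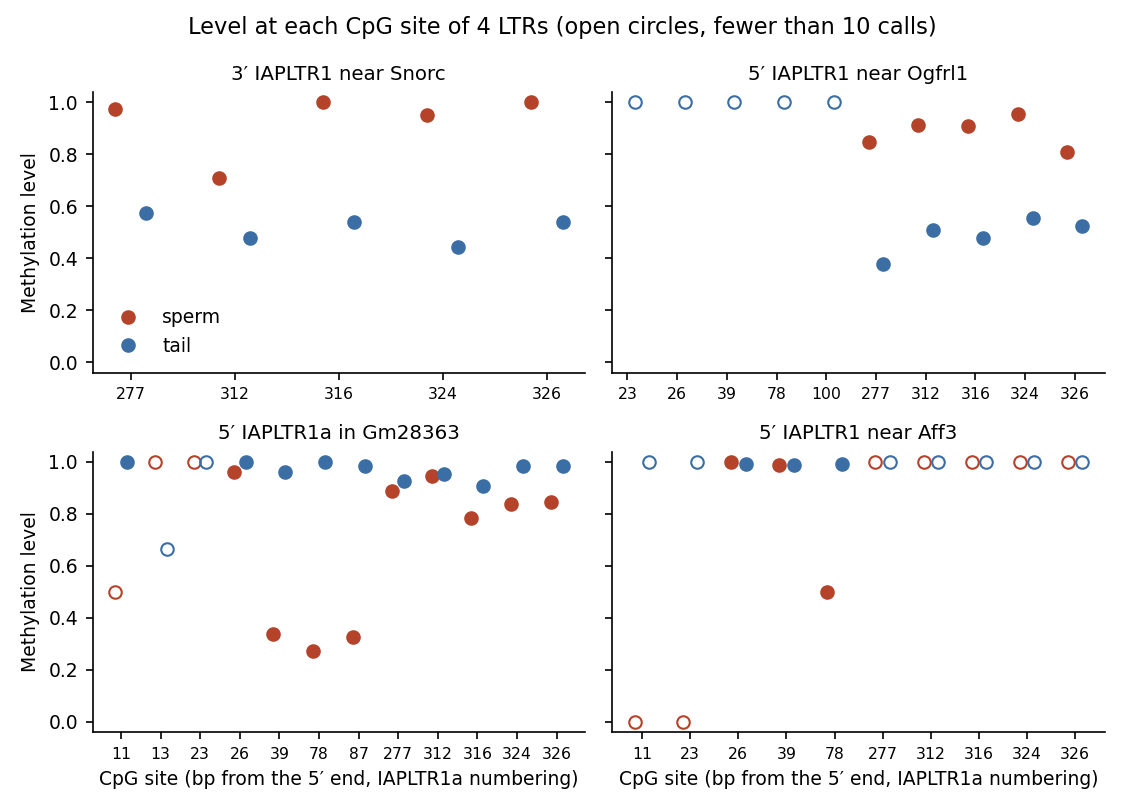
Methylation level (vertical axis) at each CpG site of 4 LTRs, sperm left of tail; filled circles have at least 10 calls and open circles fewer. The 3′ LTR near Snorc and the 5′ LTR near Ogfrl1 lie between 0.380 and 0.576 in tail at their 5 downstream sites, and the 5′ LTR in Gm28363 falls to 0.273 in sperm at site 78.

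Where both libraries gave at least 100 calls, the remaining low ones were lower by less. In sperm a 5′ IAPLTR1 LTR at chr1:125316764-125317129, 75776 bp from Actr3, which encodes a subunit of the actin-nucleating Arp2/3 complex, had 0.720, against 0.859 in tail (21191 and 18325 calls, adjusted p by Fisher's exact test 1.9e-257). Its 3′ partner also had the lower level in sperm, 0.794 against 0.958 in tail. A 5′ IAPLTR1a LTR at chr1:37773885-37774218, in an intron of Tsga10, a gene expressed in testis, had 0.726 in sperm against 0.853 in tail. Its summed levels were 0.861 (12489 calls) and 0.930 (13860 calls). Site 180, between the primer sites, lowers both levels, with 0.000 in sperm from 3 calls and 0.095 in tail from 21 calls. The downstream part of this LTR carried the difference, with 0.692 in sperm against 0.924 in tail.

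Low in tail was first a 5′ IAPLTR1 LTR at chr1:23301117-23301467, 64957 bp from Ogfrl1. It had 0.887 in sperm against 0.744 in tail, but summed levels of 0.884 (121 calls, interval 0.813 to 0.935) and 0.494 (346 calls, 0.440 to 0.548). Its 5 downstream sites had 0.810 to 0.955 in sperm and 0.380 to 0.554 in tail, each with 21 or more calls in sperm and 65 or more in tail. The 5 upstream positions that lift its tail level had 1 or 2 calls each. A 5′ IAPLTR1 LTR at chr1:45734076-45734426, 60740 bp from Wdr75, a ribosome biogenesis gene, had 0.932 in sperm and 0.744 in tail, with summed levels of 0.932 and 0.893, a difference that did not pass the test (adjusted p by Fisher's exact test 0.13). These levels cover different CpGs, 6 positions in sperm, all downstream, and 13 in tail. Downstream sites had 0.892 to 0.971 in sperm and 0.848 to 0.975 in tail. Only tail had upstream calls, with 0.480 and 0.578 at sites 26 and 100 and 0.960 and 1.0 at sites 39 and 78. Sites 124 and 129, between the primer sites, had 0.000 in tail from 1 call each. A 3′ IAPLTR1a LTR in an intron of Casp8, the initiator caspase of death receptor signalling, had 0.798 in sperm and 0.753 in tail. Its summed levels were 0.871 (101 calls) and 0.834 (145 calls), and its tail level includes an unmethylated position with 1 call. A 5′ IAPLTR1a LTR 423299 bp from Kcnt2, a potassium channel gene, had 0.785 and 0.757. Its downstream site 297 lowers both levels, with 0.000 in sperm from 156 calls and 0.035 in tail from 57 calls. In tail, site 13 also had 0.000 from 1 call on the LTR strand, and 0.524 from 42 calls on the opposite strand. For the Casp8 and Kcnt2 LTRs the adjusted p was 0.51 and 0.14 by the same exact test.

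Upstream and downstream parts were also tested apart. Upstream, 7 of 242 members were called lower in sperm (2.89%), against 5.27% of all LTRs, and 2 lower in tail (0.826%), against 2.26%. Downstream, 3 of 287 were called lower in sperm (1.05%), against 5.39%, and 5 lower in tail (1.74%), against 1.95%. The member shares were below the shares over all LTRs, which include the members. For downstream parts lower in tail, however, the shares were nearly the same. Some part calls rest on positions with few calls or on how positions are weighted. Upstream, the solo LTR in Dnah7b had 0.448 in sperm and 0.797 in tail, but 0.886 and 0.737 summed. The upstream part of the 3′ LTR 240962 bp from Pla2g4a had 0.627 and 0.933, but 0.882 and 0.902 summed. That of the 3′ partner of the LTR near Actr3 was called from 29 sperm and 35 tail calls.

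All 5 downstream parts lower in tail were IAPLTR1, and all 3 lower in sperm were IAPLTR1a; the parts were singled out after their values were seen. Lower in tail were those near Snorc (0.927 in sperm, 0.516 in tail) and Ogfrl1 (0.887 and 0.488). A 3′ LTR at chr10:31754521-31754890 had 0.991 in sperm and 0.668 in tail (1166 and 154 calls), and a 3′ LTR at chr1:76773342-76773707 had 0.934 and 0.687 (2507 and 867 calls). The last, a 3′ LTR at chr1:11887116-11887466, had 0.880 and 0.660, but 0.882 and 0.916 summed. Lower in sperm were the downstream part of the 5′ partner of the LTR 240962 bp from Pla2g4a (0.669 in sperm, 0.964 in tail), that of the LTR in Tsga10, and that of the 3′ LTR in Gm28363 (0.728 and 0.948). The upstream parts lower in tail were in a 5′ IAPLTR1 LTR at chr1:48089001-48089474 (0.953 in sperm, 0.751 in tail) and in a solo IAPLTR1a LTR at chr1:157067390-157067738 (0.90 and 0.694). Of the 7 upstream parts lower in sperm, 5 were IAPLTR1 (of 92 tested) and 2 IAPLTR1a (of 150). The downstream split by subfamily was thus not seen upstream.

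Within an element, the downstream part of the 5′ LTR and the upstream part of the 3′ LTR lie next to IAP sequence and are called inner parts here. The upstream part of the 5′ LTR and the downstream part of the 3′ LTR lie next to the host genome and are called outer parts. The division was made after the values were seen. Inner parts were lower in sperm than in tail more often than outer parts were. The median of the 226 inner parts was 0.875 in sperm and 0.924 in tail; of them 166 (73.5%) were lower in sperm. The 260 outer parts had medians of 0.912 and 0.930, and 154 (59.2%) were lower in sperm. The gap between inner and outer was smaller upstream, with 65.6% of 96 inner and 57.6% of 125 outer parts lower in sperm, than downstream, with 79.2% of 130 and 60.7% of 135. The 43 parts of solo LTRs, which have host sequence on both sides, had 0.941 and 0.919, and 15 (34.9%) were lower in sperm.

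The widest gap was in the inner downstream parts of IAPLTR1a, that is, in their 5′ LTRs. There the median was 0.851 in sperm (quartiles 0.815 and 0.871) and 0.928 in tail (0.902 and 0.948), the median difference was -0.077, and 65 of 73 LTRs were lower in sperm. The same stretch in IAPLTR1a 3′ LTRs had 0.906 in sperm and 0.938 in tail (50 of 74 lower in sperm) and in IAPLTR1a solo LTRs 0.951 and 0.925 (4 of 16 lower in sperm). In IAPLTR1 the inner downstream parts had 0.887 in sperm and 0.930 in tail (38 of 57 lower in sperm), against 0.926 and 0.936 for the outer ones (32 of 61 lower in sperm). Summed calls gave a median difference of -0.080 for the IAPLTR1a inner downstream parts.

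**Figure D4:**
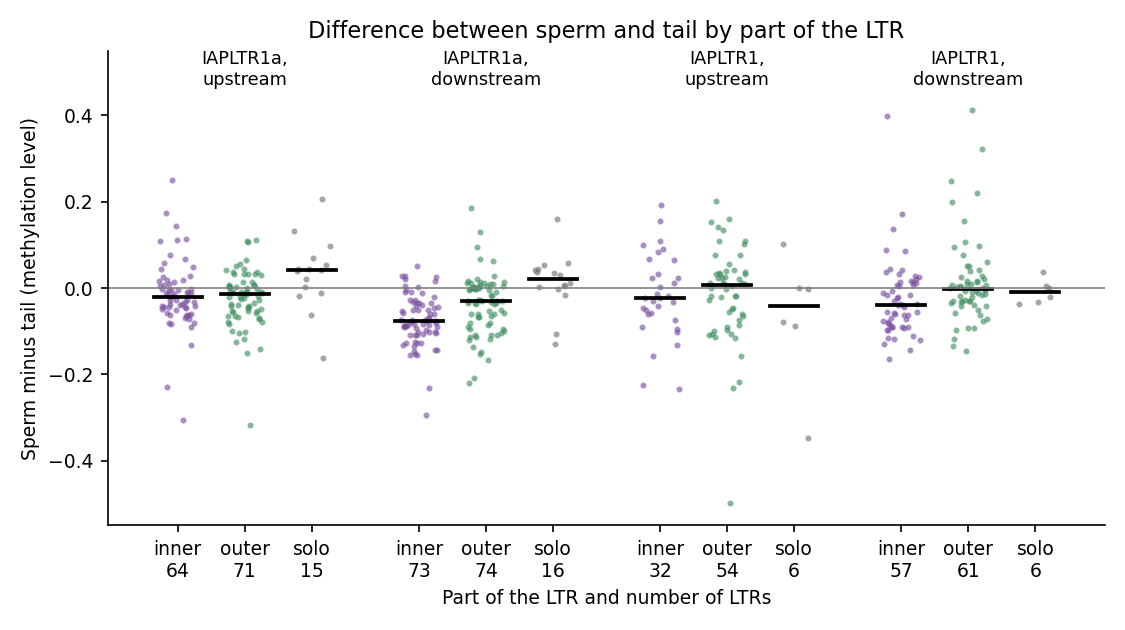
Sperm minus tail difference (vertical axis, in units of methylation level) of the upstream and downstream part of each LTR, by subfamily and by whether the part lies next to IAP sequence (inner), next to the host genome (outer) or in a solo LTR; black bars are medians and the numbers count LTRs. The lowest bar is that of the 73 inner downstream parts of IAPLTR1a, at -0.077, and the bar of the 16 solo downstream parts of IAPLTR1a is at 0.021.

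The LTRs of each element were also paired. In sperm the downstream part had a median of 0.861 in the 5′ LTR and 0.916 in the 3′ LTR over 124 elements, and it was lower in the 5′ LTR in 90 of them. In tail the medians were 0.930 and 0.933, and 60 of 124 were lower in the 5′ LTR. For the upstream part, over 91 elements, the medians in sperm were 0.902 in the 5′ LTR and 0.893 in the 3′ LTR. In tail they were 0.918 and 0.914. The upstream part was lower in the 5′ LTR in 34 of 91 elements in sperm and 38 in tail, and the median of 5′ minus 3′ was 0.014 in both.

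Depth moved with this pattern. Inner parts had a median of 648 calls in sperm and 397 in tail, and outer parts 2953 and 2053, and read pairs from inner parts run into sequence that many IAPs share. The part of depth and read placement in the difference was not tested. Inner parts were also lower in sperm in the other LTRs of the list, with 0.823 in sperm and 0.885 in tail over 184 parts. Outer parts of those LTRs had 0.869 and 0.922 over 163 parts, with 71.2% of inner and 72.4% of outer parts lower in sperm.

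No element was called different between its whole 5′ and 3′ LTR. Among 136 member elements, 0 were called with the 5′ LTR lower and 0 with the 3′ LTR lower in sperm, against 2.43% and 3.64% of all 247 elements. In tail the counts were also 0 and 0, against 0.412% and 4.12% of 243. The zeros come from the minimum difference of 0.2. By the same exact test without adjustment, 96 of 136 elements had p under 0.05 in sperm and 92 in tail. Calls of 5′ LTRs came mostly from the upstream stretch, and calls of 3′ LTRs mostly from the downstream stretch. The test of whole LTRs thus compares largely different CpGs and cannot separate the type of LTR from the stretch read. The median of 5′ minus 3′ was -0.018 in sperm (range -0.147 to 0.173, lower in the 5′ LTR in 86 elements) and 0.002 in tail (range -0.185 to 0.177, 65 elements). Spearman's rho between the 5′ and 3′ LTR was 0.28 in sperm and 0.04 in tail for levels, and 0.49 and 0.15 for summed levels, as a description over 136 elements read in 1 library each.

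Along the LTR most CpG sites were close to fully methylated, and a few stood lower. Sites were taken from an alignment of the 302 rows, and each LTR counted at a site only with at least 10 calls there in both libraries. The highest IAPLTR1a median in sperm was 0.952 at site 11, with 0.95 in tail (n = 68). The highest IAPLTR1 median in tail was 0.964 at site 26, with 0.95 in sperm (n = 75). Among sites held by most copies of a subfamily (50% or more), the lowest IAPLTR1a median in sperm was 0.858, at site 78, and the lowest in tail was 0.859, at site 87, with 0.870 in sperm (n = 110).

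Among these sites, site 78 had the largest median difference within IAPLTR1a as a whole. In IAPLTR1 the largest was at site 324 (-0.025), and in IAPLTR1a 5′ LTRs alone site 324 (-0.110) exceeded site 78 (-0.095). Site 78 lies in U3 between the 5′ end and IAP-BS1, and its commonest surroundings were atctgCGcatgt, found in 218 member rows. In IAPLTR1a its median was 0.858 in sperm (quartiles 0.785 and 0.915) and 0.939 in tail (0.913 and 0.966), and 116 of 140 LTRs were lower in sperm, with a median difference of -0.079. In IAPLTR1 it was 0.902 in sperm and 0.924 in tail, and 54 of 83 were lower in sperm, with a median difference of -0.016. The site was lower in sperm in both outer and inner parts of IAPLTR1a: 57 of 69 in 5′ LTRs (0.845 in sperm, 0.952 in tail) and 53 of 57 in 3′ LTRs (0.845 and 0.929). In IAPLTR1a solo LTRs it had 0.960 in sperm and 0.935 in tail (6 of 14 lower in sperm). Its neighbours differed little: site 39 had 0.909 in sperm and 0.925 in tail in IAPLTR1a (72 of 141 lower in sperm), and site 87 was slightly higher in sperm (46 of 110 lower in sperm).

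Downstream, sites 277, 316, 324 and 326 were lower in sperm in most 5′ LTRs, and the gap was smaller at site 312. In IAPLTR1a 5′ LTRs the median level at site 277 was 0.840 in sperm and 0.930 in tail (62 of 70 lower in sperm). The values were 0.848 and 0.936 at site 316 (55 of 69), 0.818 and 0.932 at site 324 (61 of 69) and 0.867 and 0.946 at site 326 (51 of 59). At site 312, 4 bases before site 316, they were 0.922 and 0.945 (46 of 69). In IAPLTR1a solo LTRs site 324 had 0.988 in sperm and 0.957 in tail (n = 16). In IAPLTR1 5′ LTRs site 324 had 0.881 and 0.940 (38 of 50 lower in sperm).

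The lowest medians of any site came from a CpG that a minority of copies carry, site 299, which is singled out after its values were seen. It is present in 44 of 170 IAPLTR1a rows and 12 of 132 IAPLTR1 rows, with the commonest surroundings tgttgCGtcttt. In IAPLTR1a its median was 0.690 in sperm (quartiles 0.614 and 0.868) and 0.827 in tail (0.774 and 0.873; n = 43, 28 lower in sperm). In IAPLTR1a 5′ LTRs it had 0.628 in sperm and 0.796 in tail (n = 19), and in 3′ LTRs 0.868 and 0.873 (n = 18). The neighbouring sites of these copies were not examined apart.

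**Figure D5:**
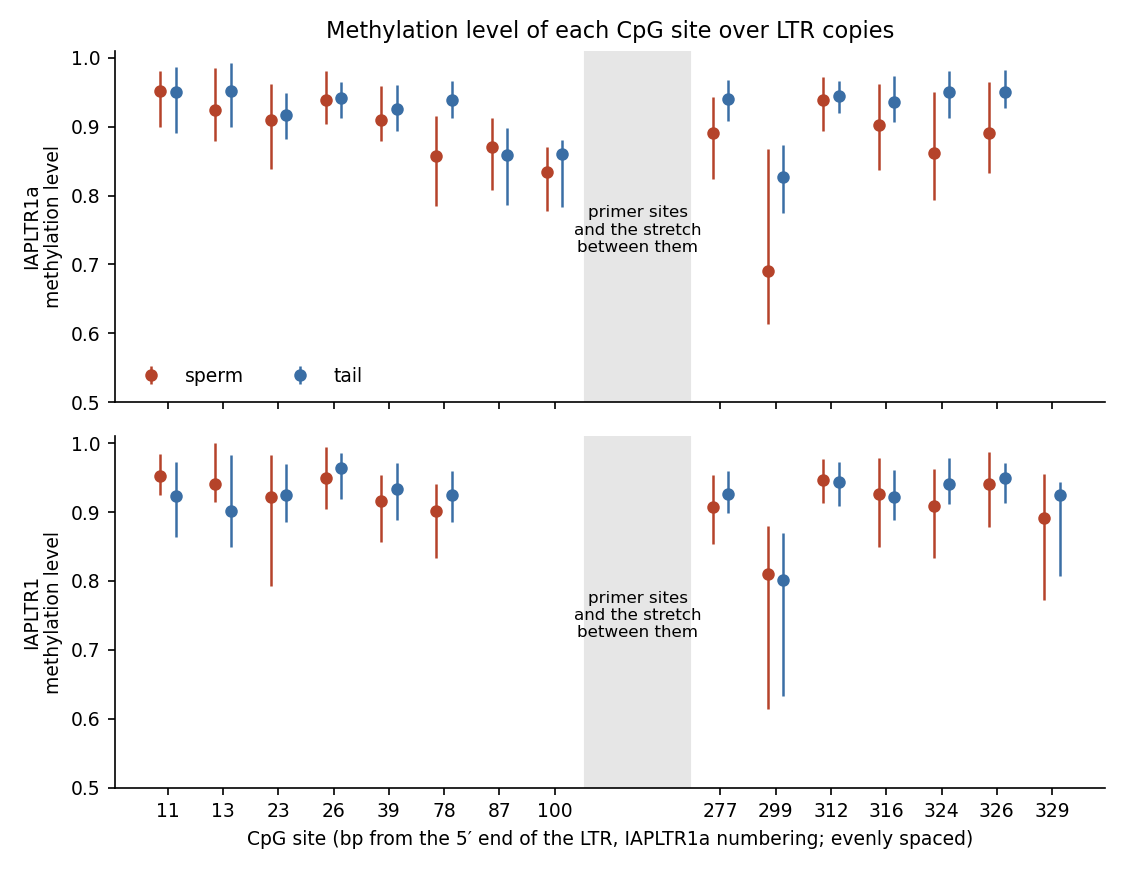
Median methylation level over copies at each CpG site, sperm left of tail, for IAPLTR1a (top) and IAPLTR1 (bottom); vertical lines run between the quartiles and sites are evenly spaced in their order along the LTR. In IAPLTR1a, sperm lies below tail at site 78 (0.858 and 0.939) and at site 324 (0.861 and 0.95), and site 299 is lowest (0.690 and 0.827).

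Single CpG positions were tested as the LTRs were, with Fisher's exact test and adjustment over 5599 positions. Of 2320 member positions, 152 were called lower in sperm (6.55%), against 10.2% of all positions, and 78 lower in tail (3.36%), against 3.86%. The called positions were spread over 107 LTRs for sperm and 55 for tail, and 32 and 14 of these LTRs held 2 or more. In IAPLTR1a 7.13% of 1472 positions had a call for the lower level in sperm and 2.24% for that in tail, and in IAPLTR1 5.54% and 5.31% of 848.

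The share of called positions differed between sites and did not follow the medians throughout. At site 78 of IAPLTR1a, 24 of 134 positions had a call for the lower level in sperm (17.9%) and 0 for that in tail. At site 324 of IAPLTR1a the counts were 18 and 2 of 146 (12.3% lower in sperm), and at site 277 12 and 2 of 153 (7.84%). Site 87, with the lowest tail median, had 6 and 5 of 104 (5.77%), while sites 13 and 23, with higher medians, had 8.51% and 8.82% lower in sperm. At site 39, by contrast, 2 of 135 were lower in each library, and at site 312 3 and 3 of 149. In IAPLTR1 the calls went both ways, with 6 for sperm and 10 for tail of 101 positions at site 316, and 7 and 7 of 98 at site 324. Positions of 1 LTR are read in the same fragments and are not independent.

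Copies with the same sequence did not have the same measured level. Which CpG positions were covered in each copy, and how deeply, was not compared. The 3 copies of the printed IAPLTR1a sequence had 0.817 to 0.913 in sperm and 0.825 to 0.929 in tail, and their differences ran from -0.112 to 0.088. The 3 copies of the printed IAPLTR1 sequence had 0.863 to 0.974 in sperm and 0.833 to 0.953 in tail, with differences from -0.090 to 0.142.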

How the data were processed

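The deposited tables give, per CpG position and strand, the counts of methylated and unmethylated calls and the percent methylated; the counts were used. The authors trimmed primers and low-quality bases, mapped read pairs to mm10 with Bismark (version not given in the sources used here) and discarded pairs with several hits. The sperm library held 95744413 calls and the tail library 55366653. Copies came from the part of the study's list used here, and starts were read as counted from 0. Sequences were read from the RefSeq GRCm38.p6 genome, the primer sites were placed with edlib 1.3.9.post1 on converted sequence (at most 5 differences), and members were aligned with MAFFT 7.526. Fisher's exact tests used scipy 1.17.1 and were tried on simulated independent calls with the same level along each LTR. The simulation did not model repeated reads of a molecule or levels that vary along an LTR. The members and lists were chosen with earlier results of these data known. The LTRs named are those called, the 5 lowest per library with at least 100 calls and the largest groups of identical copies. Named too are LTRs matched to loci the study took for bisulfite PCR, and sites with the highest, lowest or most different medians. Others are marked. Alternatives were call minimums, summed calls, thin positions removed, strands merged, shortened intervals and other minimum differences.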

Additional observations from a re-analysis of the deposited data

How the results depend on the processing

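No paired analysis was possible because each tissue has 1 library. The 53 alternative medians of sperm minus tail at a site used at least 5 or 50 calls there. They stayed within the 95% interval of the main median, which takes copies as independent. The median sperm level was 0.899 with summed calls. The counts that follow are of members only. Shares over all LTRs, parts, positions or elements were not computed at these settings, so whether members moved differently from the rest was not tested. Members called lower in sperm per LTR numbered 1 with summed calls, 1 without positions under 5 calls, and with minimum differences of 0.1 and 0.3 they numbered 30 and 1. Those lower in tail numbered 3 with summed calls, 3 with positions of at least 5 calls, 3 with intervals shortened by 20 bp, and 13 with a minimum difference of 0.1. The solo LTR in Dnah7b turned to 0.073 with positions of at least 5 calls. Upstream parts called lower in sperm numbered 4 with at least 200 calls, 4 without positions under 5 calls, and at minimum differences of 0.1 and 0.3 they numbered 20 and 4. Upstream parts lower in tail numbered 1 with at least 100 calls, 1 with 200, and 9 and 0 with minimum differences of 0.1 and 0.3. Downstream parts lower in sperm numbered 45 and 0 with those differences, and those lower in tail 3 with at least 200 calls and 13 and 3 with those differences. CpG positions called lower in sperm numbered 95 with at least 100 calls and 411 and 69 with minimum differences of 0.1 and 0.3, and those lower in tail 48, 187 and 34. Elements in sperm called with the 5′ LTR lower numbered 4 with a difference of 0.1, and with the 3′ LTR lower 1 with shortened intervals and 7 with 0.1. In tail the 5′ LTR was lower in 4 with 0.1, and the 3′ LTR in 3 with summed calls, 2 with positions of at least 5 calls, 1 with shortened intervals and 11 with 0.1. Why counts moved was not tested. Inner parts had the fewest calls.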
